A study of Mus musculus with 2 samples.

Results

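The data describe 9 chemokine receptor genes, Ccr1, Ccr2, Ccr3, Ccr6, Ccr9, Ccrl2, Cxcr3, Cxcr4 and Cx3cr1, in mouse splenic dendritic cells (DCs) with and without IL-27. They were chosen by gene symbol, with earlier results of these data known. They are 9 of the 19935 genes that the arrays measured with a probe set assigned to a single gene. A probe set is the group of array probes that is summarised into 1 value for a gene, and each of the 9 genes had 1 such probe set. The DCs were isolated by flow cytometry from spleens of wild type C57BL/6 mice 8 weeks old. In the control group they were cultured with vehicle (medium), and in the treated group with IL-27, a cytokine of the IL-12 family. Wild type genotype, strain, age and cell type were shared by both groups, and there was 1 array per group. How many mice and cultures stand behind each sample, the sort markers and the IL-27 dose were not given in the labels. The length of the treatment is labelled "ON", which was not expanded. A single array in each group leaves every difference without a replicate check, so nothing was tested and no error is attached to a value; precision is limited by the number of arrays.

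Chemokine receptors are G protein-coupled receptors on the surface of leukocytes. They bind chemokines, small secreted proteins that form gradients, and steer the cells along them by signalling through inhibitory G proteins. The pattern of receptors on a DC is known to change as it matures: receptors for inflammatory chemokines are lost and CCR7, which guides DCs to T cell zones, is gained. Ccrl2 is an atypical member that binds the chemoattractant chemerin without signalling in the classical way and can present it to neighbouring cells.

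Values are intensities, the brightness of a probe set on a linear scale in arbitrary units, as deposited. Differences are log2 IL-27 intensity minus log2 vehicle intensity, so that -1 stands for a 2-fold lower value on the IL-27 array. A gene is called lower or higher by size alone, where the difference is at least 2-fold and the brighter array is at or above 96.2, the median of all values. Background was measured on 1027 genes for olfactory receptors, which DCs are not known to use. Their 95th percentile was 77.3 for vehicle and 129 for IL-27, and is called the background limit below. Their median difference was 0.46, above the 0.04 of all genes. Median intensity over all 28815 probe sets was 92.4 and 98.9, respectively. Intensities of different probe sets do not rank genes by abundance, so each receptor is compared only between arrays and with the background limit.

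The promoters of 3 receptors are shown because these genes mark the ends of the range described below: Ccr3 and Ccrl2 had the largest differences, and Cxcr4 had almost none. Each runs from 250 bases before to 50 bases after a transcription start in RefSeq (build GRCm38.p6), 5′ to 3′ on the gene's strand. Capitals mark GAGGAA, a form of the site bound by ETS factors such as PU.1, and TTCNNNGAA, the site bound by STAT factors, searched on both strands. Ccr3 lies on the plus strand (chr9:124021721-124022020), and Ccrl2 (chr9:111057469-111057768, the first of 3 starts listed) and Cxcr4 (chr1:128592250-128592549) lie on the minus strand.
Ccr3: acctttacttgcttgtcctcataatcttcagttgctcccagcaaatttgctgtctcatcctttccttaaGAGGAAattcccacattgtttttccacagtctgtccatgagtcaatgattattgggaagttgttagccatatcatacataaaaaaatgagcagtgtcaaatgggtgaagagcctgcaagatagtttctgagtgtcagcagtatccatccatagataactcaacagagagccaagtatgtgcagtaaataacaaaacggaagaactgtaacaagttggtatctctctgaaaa
Ccrl2: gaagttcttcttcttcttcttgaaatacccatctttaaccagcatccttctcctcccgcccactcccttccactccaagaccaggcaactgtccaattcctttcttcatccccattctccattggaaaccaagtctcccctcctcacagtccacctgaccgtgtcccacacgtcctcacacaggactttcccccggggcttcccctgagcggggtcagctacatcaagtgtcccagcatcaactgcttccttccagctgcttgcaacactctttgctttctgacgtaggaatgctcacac
Cxcr4: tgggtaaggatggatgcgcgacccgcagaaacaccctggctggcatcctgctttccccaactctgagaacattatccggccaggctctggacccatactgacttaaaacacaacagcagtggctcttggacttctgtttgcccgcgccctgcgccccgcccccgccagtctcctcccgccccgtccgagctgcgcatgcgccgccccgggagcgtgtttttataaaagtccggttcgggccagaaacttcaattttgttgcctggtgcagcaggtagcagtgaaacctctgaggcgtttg

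In these windows the Ccr3 promoter held 1 GAGGAA match, beginning 181 bases before the start, and those of Ccrl2 and Cxcr4 held neither motif. All 9 receptors had an entry, with 12 promoters in all. GAGGAA was found for 4 of the 9 receptors (Ccr1, Ccr3, Ccr6 and Cxcr3), beside 31.3% of all 27025 genes with a promoter. TTCNNNGAA was found for 1, Ccr6, at 157 and 120 bases before the start as TTCAAAGAA and TTCCAAGAA, beside 9.55% of all genes. The promoters also differed in base composition. GC content was 39.0% for Ccr3 with 1 CpG, 53.0% for Ccrl2 with 6, and 59.3% for Cxcr4 with 20, where the median over all promoters was 52.7% and 7. The windows of Ccr1 and Ccr2 were as poor in CpG as that of Ccr3, with 1 each. A match is a description of letters, not of binding.

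Ccr3 and Ccrl2 were lower on the IL-27 array, 5 further receptors over the level minimum were neither lower nor higher, and Ccr1 and Ccr2 were at background on both arrays. By the size rule 2 of the 9 receptors were lower and 0 were higher. Over all 19935 genes 7.36% were lower and 0.848% were higher. Over the 11140 genes that reached the level minimum, which 7 of the receptors did, these shares were 13.2% and 1.52%. The median difference of the 9 receptors was -0.69. Of the 9 differences, 8 were below 0, beside 9285 of all 19935 genes. These 8 include Ccr1 and Ccr2, from which no difference is read. For the 7 receptors over the level minimum, genes nearest in mean level had median differences below 0 too, from -0.56 to -0.25. The trend of the difference with level was then removed by a smooth curve through all probe sets. That brought the median of the 9 receptors to -0.35, beside -0.02 for all genes.

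**Figure D1:**
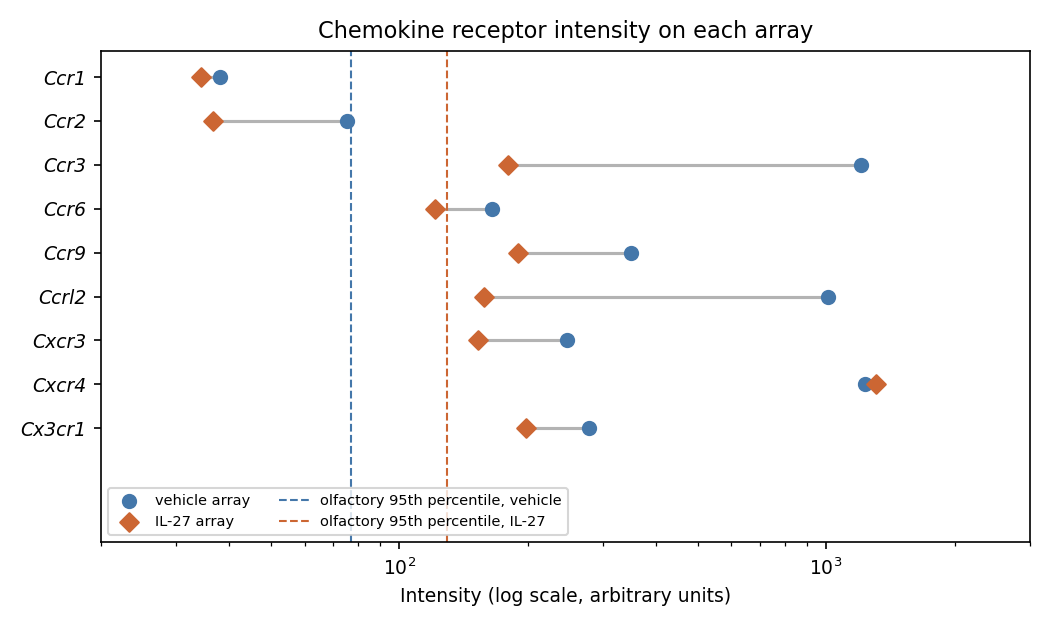
Intensity of the 9 receptors (log axis, arbitrary units) on the vehicle array (circles) and the IL-27 array (diamonds), 1 array each, with the 95th percentile of olfactory receptor genes on each array as dashed lines. Ccr3 and Ccrl2 span the widest gaps, 1207 to 180 and 1012 to 158, Cxcr4 is at 1231 and 1305, and Ccr1 and Ccr2 lie left of both lines.

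Ccr3 encodes the receptor for eotaxins, best known for drawing eosinophils into tissue. Its intensity (probe set 10590628) was 1207 under vehicle and 180 under IL-27, a difference of -2.75 or 6.72-fold lower. Both values were above the background limit of their array. On the IL-27 array, however, 0.682% of olfactory genes were as bright or brighter, against 0% on the vehicle array. The 1000 genes nearest to Ccr3 in mean level had a median difference of -0.53, with a 5th to 95th percentile range of -1.50 to 0.38. None of them differed by as much as Ccr3 in either direction. With the level trend removed the difference of Ccr3 was -2.33.

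Ccrl2, the chemerin-binding atypical receptor (probe set 10597279), read 1012 in the vehicle sample and 158 in the IL-27 sample. Its difference was -2.68, or 6.42-fold lower, and -2.25 with the level trend removed. It too stayed above the background limit on both arrays, though 1.56% of olfactory genes reached its IL-27 value. The 1000 genes of nearest level had a median of -0.55 and a range from -1.51 to 0.29 (5th to 95th percentile), and 0% of them differed by as much. Beyond the median of genes of like level, Ccr3 was lower by -2.22 and Ccrl2 by -2.14 on the log2 scale.

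The receptors of inflammatory and homing cues that lay over the level minimum showed smaller differences, all within the 5th to 95th percentile range of genes of like level. Ccr9, the gut-homing receptor also carried by plasmacytoid DCs, had 349 with vehicle and 189 with IL-27, a difference of -0.88. This is short of the 2-fold rule, and a difference of that size was met in 28.6% of its 1000 neighbours in level. Cxcr3, the receptor for interferon-induced chemokines, had 247 and 153, a difference of -0.69, which 37.2% of nearest genes reached. Cx3cr1, the fractalkine receptor of monocytes and some DCs, had 278 and 198. Its difference of -0.49 was close to the -0.56 of genes of like level, and with the level trend removed it was -0.09. Ccr6, which recognises CCL20 at epithelia, had 165 with vehicle and 121 with IL-27, the second of these below the background limit. Its difference was -0.45, and 46.5% of nearest genes differed by as much. Each of these 4 receptors was dimmer on the IL-27 array, and each by less than 2-fold.

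Cxcr4, the receptor for CXCL12, which holds many leukocytes in bone marrow and lymphoid tissue, was the receptor above background that was not dimmer with IL-27. It had 1231 under vehicle and 1305 under IL-27, a difference of 0.09. Genes of like level had a median of -0.31, and 79.3% of them lay at or below the difference of Cxcr4. The sign of its difference depended on scaling: it was -0.013 with the arrays centred on their medians and 0.33 with the level trend removed.

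Ccr1 and Ccr2, receptors for inflammatory CC chemokines on monocytes and other myeloid cells, lay below the background limit on both arrays. Ccr1 had 38.0 with vehicle and 34.2 with IL-27, a level that 58.7% and 88.6% of olfactory genes reached on these arrays. Ccr2 had 75.4 and 36.5, of which the vehicle value was just short of the limit of 77.3. Since both values of each receptor are within the range of genes not expected in DCs, no difference between the arrays is read from them.

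**Figure D2:**
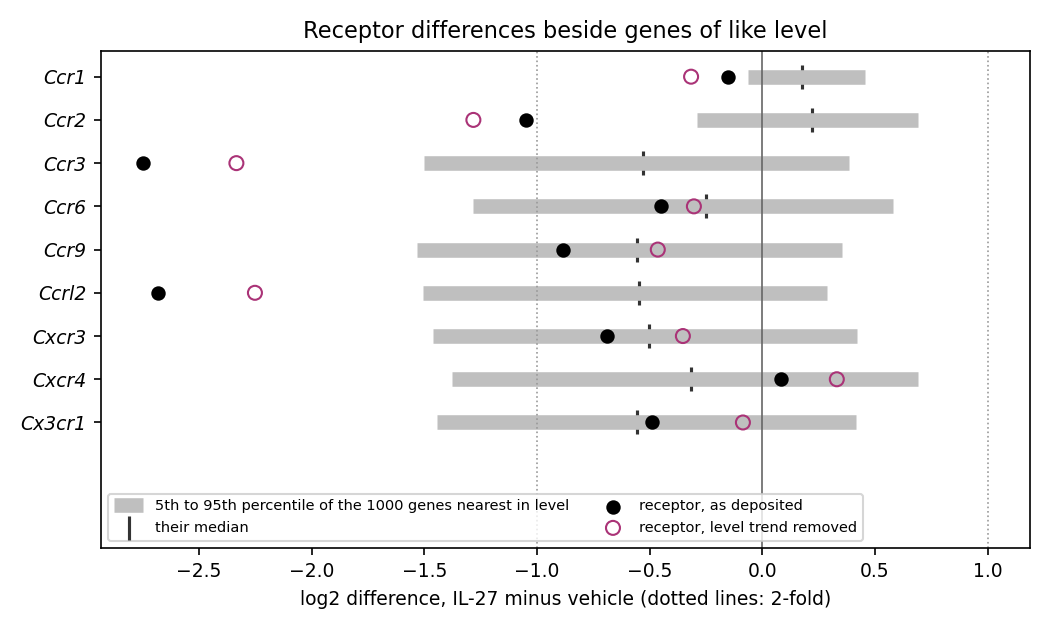
Log2 difference (IL-27 minus vehicle) of the 9 receptors as deposited (filled) and with the level trend removed (open), with the median and the 5th to 95th percentile range of the 1000 genes nearest in mean level. Ccr3 at -2.75 and Ccrl2 at -2.68 lie outside their ranges, and the other 5 receptors above background lie within theirs. The points of Ccr1 at -0.15 and Ccr2 at -1.05 also lie below their ranges. They rest on intensities at background on both arrays, so no difference is read from them.

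Among the 14 other chemokine receptor genes with a probe set of their own, Xcr1 and Cxcr2 were lower and none was higher, with a median difference of 0.21. Of the 14, 8 were below the background limit on both arrays. Xcr1, the receptor that marks cross-presenting type 1 conventional DCs, had 1579 with vehicle and 559 with IL-27, a difference of -1.50, a size met in 4.9% of its 1000 neighbours in level. Cxcr2, a receptor for neutrophil-attracting chemokines, had 117 and 55.4. Its IL-27 value was below the background limit of 129, which exceeds its vehicle value, so no fold is given. With 16 added to each intensity its call was lost. Ccr7, the receptor of mature DCs, was at 3702 with vehicle and 4858 with IL-27, a difference of 0.39 (0.45 with the level trend removed). Ackr2 (93.3 and 110), Ccr10 (84.2 and 103) and the atypical receptor Ackr1 (90.5 and 67.1) were above the limit on the vehicle array only. Of the 23 chemokine receptor genes in all, 4 were thus lower by the size rule, Cxcr2 among them, and 0 higher. The shares were 7.36% and 0.848% over all 19935 genes, and 13.2% and 1.52% over those that reached the level minimum.

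**Figure D3:**
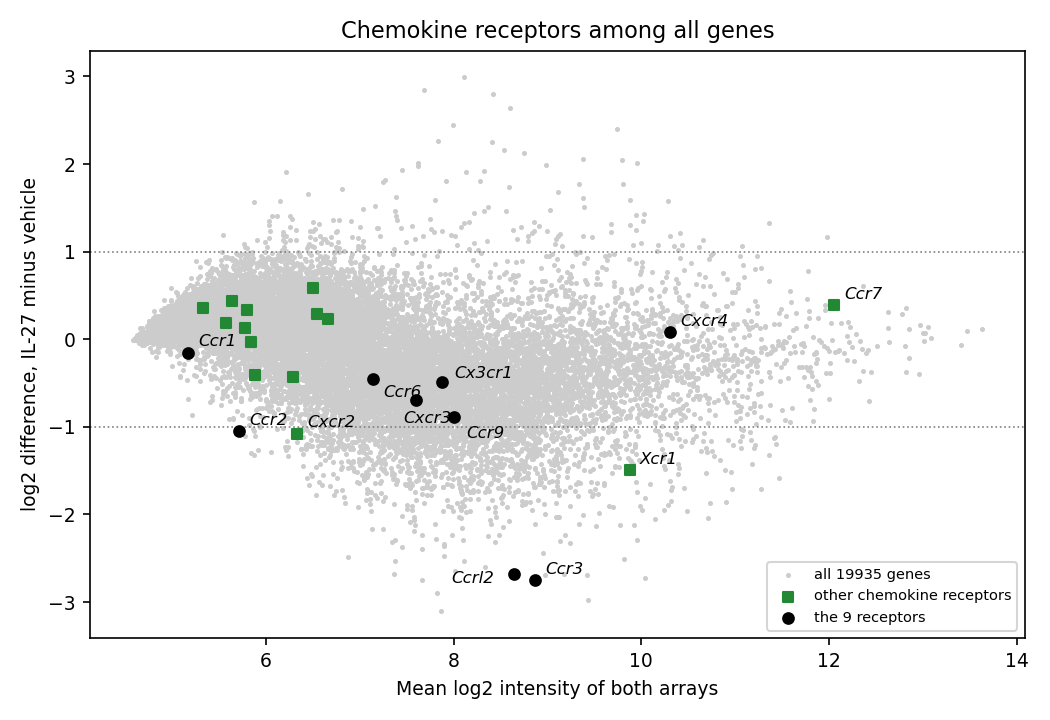
Log2 difference (IL-27 minus vehicle) against the mean log2 intensity of both arrays for all 19935 genes (grey), the 9 receptors (black) and the 14 other chemokine receptors (green squares), with dotted lines at a 2-fold difference. Ccr3 and Ccrl2 lie at the lower edge of the cloud, Xcr1 at -1.50, and Cxcr4 and Ccr7 just above 0.

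Several chemokine receptor genes of mouse chromosome 9 lie in 1 run, and its genes differed among themselves. In RefSeq's order on chromosome 9, the 11 genes from Ccr9 to Ccr2 included 8 that were measured here. This stretch was picked after its values were seen. Xcr1, Ccr3 and Fyco1, a gene of vesicle transport with 330 and 149 (a difference of -1.14), were lower. Ccr9 was at -0.88, and Cxcr6, Ccr1, Ccr1l1 and Ccr2 were at background on both arrays. Ccrl2 lies apart from this run. Of the 269 genes between Ccrl2 and Ccr9, 113 were measured and 7 of these were lower and 0 higher, with a median difference of -0.05. Of the 113, 63 reached the level minimum. Over all genes 7.36% were lower and 0.848% higher, and over those that reached the minimum 13.2% and 1.52%. The same shares stand beside the 3 of 8 measured genes that were lower in the run. The measured genes nearest to Ccrl2 were not lower: Ltf, at background, had 52.6 and 64.7, and Lrrfip2 319 and 322.

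Of the 19 ligands of the 9 receptors, 2 were lower, 1 was higher and 11 were neither, 5 were below the level minimum, and the median difference was 0.12. Ccl8, one of the 5, was counted by the pairing of its human counterpart. Over all genes 7.36% were lower and 0.848% higher, and over those that reached the level minimum 13.2% and 1.52%. The count of lower ligands was near these shares. Of the eotaxins that bind Ccr3, Ccl11 was neither, at 98.1 with vehicle and 186 with IL-27, a difference of 0.93 (past 2-fold with the level trend removed, at 1.04). Ccl24 was 1 of the 2 lower ligands, with 152 and 68.1, but against the background limit it was only at least 1.18-fold lower. The ligand list was not limited to eotaxins. Ccl5 (2175 and 2356, a difference of 0.12) and Ccl7 (116 and 145, a difference of 0.32) were neither. Both exceeded the background limit of each array. Rarres2, which encodes chemerin, the ligand of Ccrl2, was below the limit on both arrays (66.6 and 72.2). Cxcl11, a ligand of Cxcr3, was the higher gene, 2.77-fold, from 99.7 to 276. The other Cxcr3 ligands were not: Cxcl9 had 2540 and 1704, and Cxcl10 667 and 649. Ccl6, which can act through Ccr1, was 3.07-fold lower (509 and 166). Ccl3, which also binds Ccr1, had 3012 and 1951, a difference of -0.63. Among ligands of the other receptors, Cxcl12 for Cxcr4 (65.0 and 62.4) and Ccl20 for Ccr6 (65.8 and 87.2) were below the background limit on both arrays. Ccl25 for Ccr9 (94.1 and 98.0) and Cx3cl1 for Cx3cr1 (100 and 123) were above it on the vehicle array only.

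Chemerin has 3 known receptors, and 2 of them were lower. The 2 include Ccrl2, already described above. Over all genes 7.36% were lower, and over those that reached the level minimum 13.2%. Beside Ccrl2, Cmklr1, its main signalling receptor, had 321 with vehicle and 101 with IL-27, at least 2.48-fold lower against the background limit. Gpr1 was below that limit on both arrays (48.0 and 59.0).

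Genes that carry or end the signal of chemokine receptors were lower or neither. All 28 that were measured reached the level minimum; 9 were lower and 0 higher, beside 13.2% and 1.52% of all genes that reached it, and their median difference was -0.64. With the level trend removed it was -0.37 and 5 were lower, beside 6.7% of genes over the minimum and 3.73% of all genes. Rgs18, a regulator of G protein signalling that shuts off receptor output, had 400 with vehicle and 77.1 with IL-27, at least 3.09-fold lower. Rgs2, of the same family, was 3.64-fold lower (3661 and 1007). Pik3cg, the lipid kinase activated by G protein beta-gamma subunits, was 3.11-fold lower (1130 and 364). Arrb1, which encodes beta-arrestin that internalises the receptors, was 3.06-fold lower (964 and 315). Grk6, a kinase that marks active receptors for arrestin, was at least 2.63-fold lower, and Plcb2, a phospholipase downstream of the receptors, had 1049 and 426. The inhibitory G protein subunits themselves were neither: Gnai2 had 2216 and 1641, and Gnai3 541 and 699. Pik3r5, the partner subunit of Pik3cg, was at 952 and 1500, a difference of 0.66 and short of the size rule.

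Markers of other cells that carry these receptors moved differently from list to list, and their part in the receptor differences was not tested. As a yardstick for every marker count here, 7.36% of the 19935 genes were lower and 0.848% higher. Among the 11140 genes bright enough for a call, 13.2% were lower and 1.52% higher. Removing the level trend left 3.73% of all genes lower and 1.32% higher. Of those then bright enough, 6.7% were lower and 2.38% higher. Eosinophil markers, of which 7 of 9 listed were measured, summed to 467 under vehicle and 553 under IL-27, with 0 lower and 0 higher. Of the 7, 5 were below the background limit on both arrays. Their median difference of 0.45 was near the 0.46 of olfactory receptor genes (0.23 and 0.26 with the level trend removed). The defining eosinophil genes Epx (39.7 and 42.2) and Il5ra (35.1 and 34.5) were below the background limit on both arrays, while Siglecf was above it (101 and 139). Macrophage markers were lower, 12 of 15, with a median of -1.64 and sums of 39135 and 16736. Of the monocyte markers 4 of 9 measured were lower, with sums of 10345 and 5247. Cd300e, a receptor of monocytes, was 3.56-fold lower, and Fn1, F13a1 and Chil3 were below the background limit on both arrays. Type 2 conventional DC markers were lower in 4 of 8, with a median of -1.25 and sums of 7931 and 2902. Type 1 markers were lower in 4 of 8, with sums of 11245 and 5278. Cd209a of the type 2 list had 2710 and 410, a difference of -2.72, which lies between those of Ccr3 and Ccrl2. Tlr3 of the type 1 list had 644 and 103, at least 4.98-fold lower against the background limit. As to the labelled cell type, all 8 pan-DC markers were above the background limit on both arrays. Their median difference was -0.45, and their sums were 32044 and 28540. The brightest made up most of these sums: H2-Aa (7080 and 7697), H2-Ab1 (8357 and 8222) and Cd74 (8134 and 8544). Of the 8 pan-DC markers, 3 were lower (Flt3, Dpp4 and Kmo), and with the level trend removed only Kmo was. Mature DC markers, Ccr7 among them, were higher in 1 of 10 measured, Ccl22 (2 without the level trend, with Cd80), with sums of 11352 and 15524. Neutrophil markers, set beside Cxcr2, had 2 of 11 lower, and their sums were 913 and 788. S100a8 and Ly6g were below the background limit on both arrays, S100a9 was above it on both (79.4 and 137), and Csf3r and Mmp9, the lower genes, were above it with vehicle only (275 and 161). Plasmacytoid DC markers, set beside Ccr9, had 0 of 7 measured lower. The numbers lower were 0 of 9 for basophils and mast cells, 0 of 7 for T cells, 2 of 7 for B cells and 1 of 8 for NK cells, with 0 higher in each, and without the level trend 1 for B cells and 0 for NK cells. In bulk samples fewer cells of a type and less RNA per cell cannot be told apart.

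**Figure D4:**
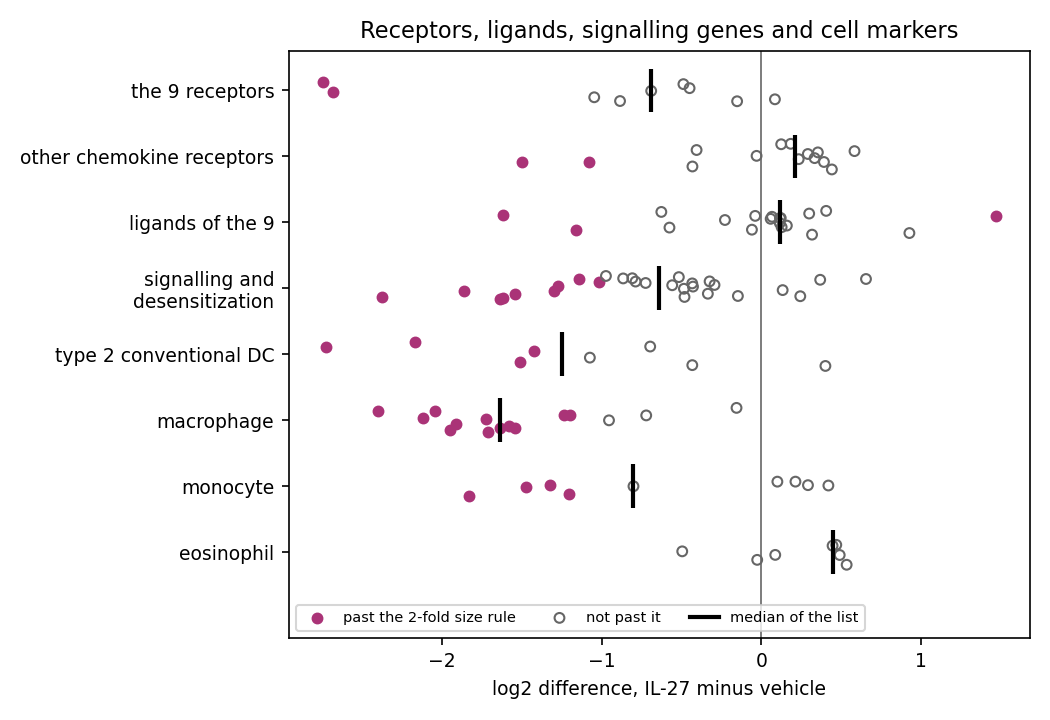
Log2 difference (IL-27 minus vehicle) of each measured gene in 8 lists, with genes past the 2-fold size rule filled, the others open, and the median of each list as a bar. The medians run from -1.64 for macrophage markers to 0.45 for eosinophil markers, where olfactory receptor genes had 0.46. Of the 7 eosinophil markers, 5 were below the background limit on both arrays. Ccr3 and Ccrl2 lie below all 15 macrophage genes, and Cd209a of the type 2 list, at -2.72, lies between them.

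With 2 arrays, the genes most like Ccr3 were those nearest in log2 intensity on both, with clone names and predicted genes left out. These were Clec4a3, an inhibitory C-type lectin (1277 and 197, a distance of 0.16), the transcription factor Maf (1155 and 213, a distance of 0.26) and Ccrl2 itself (0.32). For Ccrl2 they were Ccr3, the transcription factor Bcl11a (777 and 166, a distance of 0.39) and Paqr9 (775 and 176, a distance of 0.41). Over 2 arrays this likeness says that the pairs of values were close and no more.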

How the data were processed

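RNA of 1 vehicle and 1 IL-27 sample was labelled with biotin and hybridised to 1 Affymetrix array each, per the labels' protocols. The deposited table holds 1 linear intensity per probe set and array. The submitters' processing notes name build mm8; how the scanner signal was corrected, summarised and scaled was not stated in those notes or in the labels. Of 28815 probe sets, 21780 had 1 gene in GEO's platform annotation, 1605 had several and 5430 are unnamed here. Each gene took its single-gene probe set with the highest mean log2, and log2 was taken with no pseudocount. Probe sets can cross-hybridise between close relatives such as Ccr1 and Ccr1l1.

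Named genes were the 9 receptors and the other receptors above background. Of the ligand and signalling lists, up to 6 genes with the largest differences were named. Also named were the eotaxins that bind Ccr3, the ligand of Ccrl2, the 3 genes nearest to Ccr3 and to Ccrl2, and defining markers. Further genes were named after their values were seen. The receptors and lists were chosen with earlier results of these data known. In all, 12 listed genes had no single-gene probe set and were not analysed here. The gene set between Ccrl2 and Ccr9 followed RefSeq's order (GRCm38.p6). Counts and medians of the receptors, ligands and signalling genes were recomputed after median centring, quantile normalization or removal of the level trend (lowess, span 0.3, statsmodels 0.14.6), with 16 added to every intensity, with 2 other level filters, with a 1.5-fold rule, and with a gene's probe sets averaged. The same for the counts of the marker lists was added after seeing the data; the neighbouring genes were not recomputed. The procedure was tested on simulated data. Python 3.11.15 was used with numpy 2.4.6 and pandas 2.3.3.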

Additional observations from a re-analysis of the deposited data

How the results depend on the processing

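Ccr3 and Ccrl2 were lower under every alternative tried, with differences from -2.85 to -2.33 for Ccr3 and from -2.78 to -2.25 for Ccrl2. The difference of Cxcr4 turned to -0.013 with median centring. The median of the 9 receptors was -0.35 without the level trend and -0.44 after quantile normalization, and 4 of them were lower under the 1.5-fold rule (18.8% of all genes). Ccr4 and Cxcr6, both at background, turned to -0.11 and -0.043 on removing the level trend, and to -0.10 and -0.045 after quantile normalization. The median of the other receptors was 0.026 without the level trend, 0.033 after quantile normalization and 0.11 with median centring, and 1 was lower with the offset. The ligands had 2 higher after quantile normalization, without the level trend and under the 1.5-fold rule, and a median of 0.19 with the trend removed and 0.018 with median centring. Of the signalling genes 5 were lower with the trend removed (median -0.37), and 14 lower and 1 higher under the 1.5-fold rule. The cause of these shifts was not tested, apart from the wider size rule. The share of lower genes over all 19935 ran from 3.73% with the level trend removed to 9.38% with median centring at the 2-fold rule. With 1 array a group no array could be left out, and no paired analysis was possible because each group has 1 sample. Near the background limit, intensities of Ccr1, Ccr2 and Ccr6 set no reliable fold.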
